A study of Homo sapiens with 6 samples.

Results

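RAB GTPases are small membrane-bound switches that direct vesicle traffic. Bound to GTP, a RAB sits on the membrane of 1 compartment and recruits effectors (motors, tethers and coat adaptors), and after GTP hydrolysis it is drawn off the membrane by a GDP dissociation inhibitor. Exchange factors load it again, and GTPase-activating proteins switch it off. Urothelial cells, the lining cells of the bladder, depend on such traffic to carry uroplakin plaques in fusiform vesicles to their apical surface, a delivery in which RAB27B is known to take part. The RAB genes of 3 human bladder cancer cell lines are described here, with and without quisinostat, an inhibitor of many histone deacetylases (HDACs).

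The members were chosen by name: every gene of the expression table called RAB followed by a number and at most 1 letter, with pseudogenes and RAB-interacting or RAB-regulating proteins left out. This gave 42 RAB genes among 10066 assembled loci, of 63 protein-coding RAB symbols in the GENCODE 29 annotation. The other 21, RAB17, RAB21, RAB3A and RAB37 among them, were not among the names of the table used here. In 5 cases the assembled locus also carries another gene name, so that the values of RAB29 (with PM20D1), RAB5C (with KAT2A and AC099811.2), RAB3D (with TMEM205), RAB4B (with EGLN2) and RAB43 (with ISY1 and the readthrough gene ISY1-RAB43) cannot be assigned to the RAB gene alone.

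The libraries came from RT4 cells (FGFR3-TACC3 fusion), RT112 cells (FGFR3-TACC3) and SW780 cells (FGFR3-BAIBP2L1, as the label spells it). Each line received quisinostat for 2 days, at 50 nM in RT4, 10 nM in RT112 and 25 nM in SW780, or DMSO, the solvent, for the same time. Since the dose was set per line, dose and line cannot be told apart, and RT4 cells were also grown in another medium (McCoy's 5A) than the other lines (DMEM). The library of SW780 cells with quisinostat is named SW781 in 1 of its labels and SW780 in its title, and was used as SW780.

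There was 1 library per line and treatment, 6 in all, so a difference within a line has no replicate check and gets no p-value. Expression is in FPKM, a fragment number divided by gene length and library size, which allows levels of different genes to be compared. Read depth is unknown from such values, and no counting interval can be given. In RNA from whole cultures, fewer cells of a kind and less RNA per cell cannot be told apart. All 15 markers of bladder epithelium checked were in the table, with KRT8 between 121 and 291 FPKM, while UPK3A was listed at 0 in both RT112 libraries and KRT5 was at most 0.45 FPKM in RT4 and SW780. None of the 4 leukocyte and 3 endothelial markers, and 2 of 5 fibroblast markers, were among the table's names, with COL1A1 at no more than 1.45 FPKM. COL3A1 went from 1.13 to 6.19 FPKM in RT4, from 0.09 to 0.33 in RT112 and from 2.74 to 1.31 in SW780, and its part in the RAB values was not tested.

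The 42 RAB genes together summed to 920, 801 and 810 FPKM with DMSO (RT4, RT112 and SW780), and to 1058, 899 and 843 FPKM with quisinostat. That was between 0.311% and 0.417% of all FPKM in a library, and the share was the higher one with quisinostat in each line. The median RAB gene stood at 12.7, 7.75 and 8.07 FPKM with DMSO in RT4, RT112 and SW780, and at 15.1, 9.89 and 11.1 FPKM with quisinostat, against a median of 6.59 to 7.39 FPKM over all loci. Over the 6 libraries, 40 members averaged at least 1 FPKM and 22 at least 10 FPKM.

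RAB7A, which drives late endosomes to fuse with lysosomes, was the highest RAB gene in every library: 104 FPKM in RT4, 140 in RT112 and 99.7 in SW780 with DMSO, and 149, 147 and 106 FPKM with quisinostat. RAB1B, which acts in ER-to-Golgi transport, came next in every DMSO library. The 4 highest members took between 31.7% and 41.2% of the RAB sum, and besides RAB7A and RAB1B they were RAB1A, RAB13, RAB25, RAB5C or RAB11A, depending on the library. At the other end RAB26 (granule secretion) and RAB39B (a Golgi RAB best known from neurons) averaged below 1 FPKM.

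**Figure D1:**
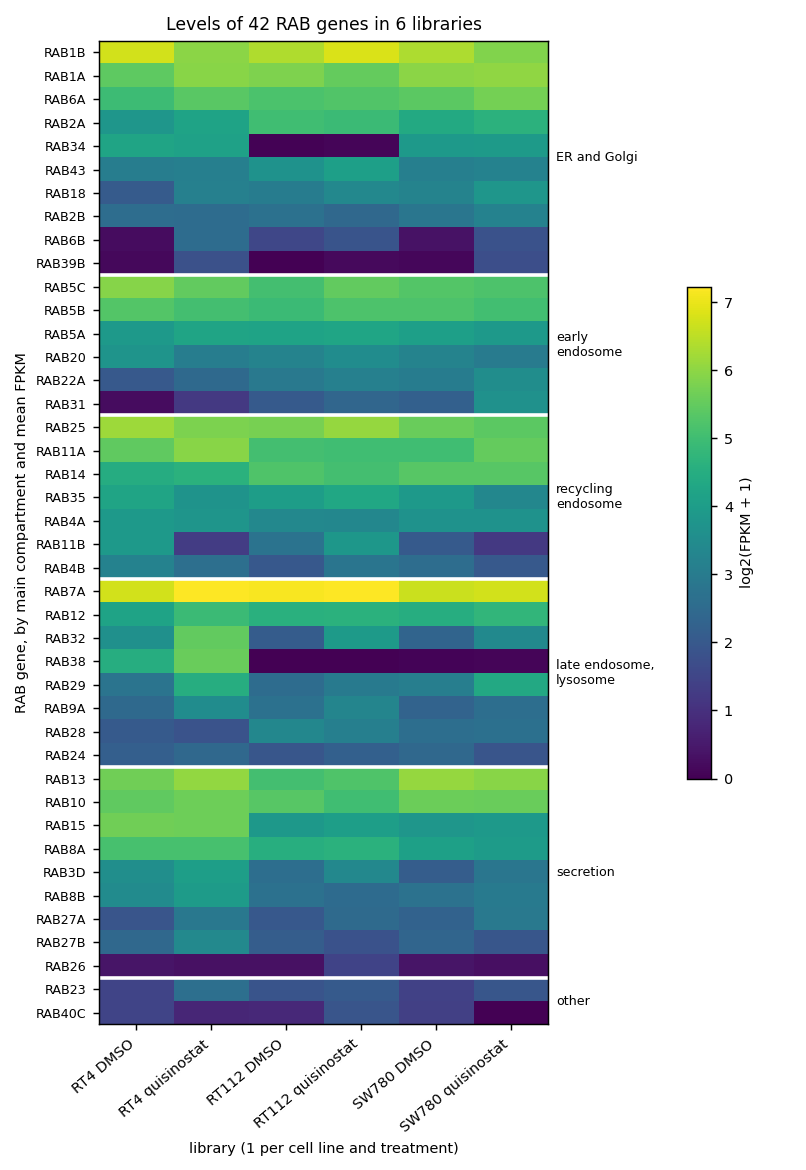
Levels of the 42 RAB genes as log2(FPKM + 1) in the 6 libraries, with genes grouped by their main compartment and ordered by mean FPKM within a group. RAB7A and RAB1B are bright in every column, RAB34 is dark in both RT112 libraries, and RAB38 is bright in the RT4 libraries only.

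The first comparison was between the cell lines. RAB34 was close to absent in RT112, RAB38 was close to absent outside RT4, and RAB15 was over 3 times as high in RT4 as in the other lines. The test was the F test of the cell line term in limma on log2(FPKM + 1), with treatment as a block, over 9430 loci with a mean of at least 1 FPKM. The DMSO and the quisinostat library of a line stand for that line, so the p-values measure only the spread between these libraries. With Benjamini-Hochberg adjustment, 4 of the 40 RAB genes tested (10%) passed an adjusted p of 0.05, against 5.96% of all loci. RAB38 met the filter on low values through RT4 alone and RAB34 through RT4 and SW780, so for these genes the levels are the result and this count is no support.

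RAB34 (chr17:28714281-28718429, minus strand), a Golgi RAB also needed for primary cilia, was at 17.7 FPKM with DMSO and 16.7 with quisinostat in RT4, and at 13.6 and 14.4 in SW780. In RT112 it was at 0.036 and 0.069 FPKM. Both RT112 libraries thus lay far below the other 4, which overlapped across treatments. Because RT4 and SW780 brought RAB34 past the filter, its test is not used here. On the log2(FPKM + 1) scale RT112 was lower than SW780 by a difference of -3.84, a value that depends on the added 1 because RT112 is near 0.

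RAB38 (chr11:88113242-88175467, minus strand), which sorts cargo to melanosomes and other lysosome-related organelles, was an RT4 gene. It stood at 21.5 FPKM with DMSO and 46.9 FPKM with quisinostat in RT4, at 0.0462 and 0.0704 FPKM in SW780, and was listed at 0 in both RT112 libraries. The RT4 libraries did not overlap with any other, and the quisinostat library of RT4 was the higher of the pair. Because only RT4 brought RAB38 past the filter, its test is not used here. RT4 exceeded SW780 by 4.95 on the log2(FPKM + 1) scale, a value that depends on the added 1 because SW780 is near 0.

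RAB15, an endosomal recycling RAB, is counted in the secretion and exocytosis group here. It was at 50.0 and 48.6 FPKM in RT4 with DMSO and quisinostat, at 13.5 and 15.6 in RT112, and at 12.8 and 13.7 in SW780 (limma F test, adjusted p = 0.0215). RT4 was higher and the other two lines overlapped. RAB32, the closest relative of RAB38, was at 11.4 and 43.9 FPKM in RT4, 3.29 and 14.2 in RT112, and 4.01 and 9.71 in SW780. Its RT4 level was the highest under each treatment, but the RT4 library with DMSO lay between the quisinostat libraries of the other lines (limma F test, adjusted p = 0.0484). The RAB15 call held in 9 of 11 alternative settings and the RAB32 call in 6 of 11. Neither held without the RT4 libraries. Among the settings that lost the RAB32 call were no filter on low values (limma F test, adjusted p = 0.0591), no mean-variance trend (0.0603) and no treatment term (0.349).

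**Figure D2:**
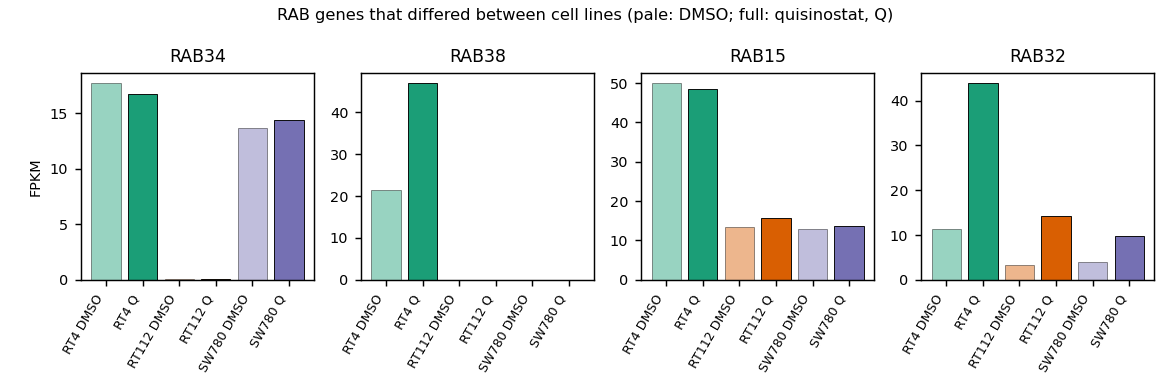
FPKM of the 4 RAB genes that passed the limma F test of cell line, 1 bar per library (pale for DMSO, full colour for quisinostat, marked Q). The tests of RAB34 and RAB38 are not used, since only lines where they are high brought them past the filter. RAB34 is near 0 in RT112, RAB38 is near 0 outside RT4, RAB15 is about 50 FPKM in RT4 and below 16 FPKM elsewhere, and RAB32 is higher with quisinostat than with DMSO in each line.

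In pairs of lines, 4 members (10%, against 4.85% of all loci) differed between RT4 and RT112, all higher in RT4. Between RT4 and SW780, 5 members differed (12.5%, against 5.10% of all loci). Among these, RAB38, RAB15, RAB32 and RAB3D were higher in RT4. RAB31, which acts between the trans-Golgi network and endosomes, was the exception, with 0.178 and 1.32 FPKM in RT4 (DMSO and quisinostat) and 3.62 and 11.5 FPKM in SW780, a difference of -2.20 on the log2(FPKM + 1) scale (limma, adjusted p = 0.0417). Between RT112 and SW780, RAB34 alone passed (2.5%, against 1.13% of all loci). These counts include RAB34 and RAB38, which met the filter only through lines where they are high, so they are no support for those genes. Without the RT4 libraries no member passed the F test, as 0% of all loci did. Without RT112 6 did (15%, against 7.89% of all loci), and without SW780 2 did (5%, against 0.68%). With the GC correction described below, 10 members passed (25%, against 21.7% of all loci), a share near the background.

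The second comparison asked what quisinostat did in each line. The response is the log2 ratio of FPKM with quisinostat over FPKM with DMSO, with no pseudocount, for the 39 members (of 9112 loci) above 0 in all 6 libraries, and a ratio beyond 0.3 in either direction was counted. Without GC correction, RAB genes leaned upwards in RT4 and RT112. In RT4, 21 members (53.8%, against 40.3% of all loci) were above 0.3 and 8 (20.5%, against 33.5%) were below -0.3. In RT112, 18 members (46.2%, against 36.0%) were higher and 4 (10.3%, against 25.2%) were lower. In SW780, 13 members (33.3%, against 32.8%) were higher, a share near the background, and 7 (17.9%, against 28.2%) were lower. The median over the members was 0.36, 0.29 and 0.08 (RT4, RT112 and SW780), where that over all loci was 0.08, 0.06 and 0.04. With the GC correction described below, 17 of the 39 were above 0.3 in RT4 (against 38.8% of loci), 15 in RT112 (against 31.2%) and 12 in SW780 (against 32.2%). The excess of higher members over all loci in RT4 and RT112 was thus smaller after it. Members below -0.3 were also fewer: 5 in RT4 (against 29.8% of loci), 0 in RT112 (against 20.9%) and 5 in SW780 (against 26.7%).

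Across the 3 lines, 8 members were above 0.3 in every line (20.5%, against 11.4% of all loci) and 0 were below -0.3 in every line (against 4.99%). A further 11 were beyond 0.3 in opposite directions in different lines (28.2%, against 29.3% of all loci), 12 were higher in 1 or 2 lines only, 2 (RAB10 and RAB35) were lower in 1 or 2 lines only, and 6 (RAB14, RAB15, RAB28, RAB4A, RAB5B and RAB8A) stayed within 0.3 in each line (15.4%, against 7.12% of all loci). With the GC correction described below, 13 of the 39 members stayed within 0.3 in each line, a count without a background share. Among these 13 were 2 of the 6, while RAB15 (0.51), RAB28 (-0.60), RAB4A (-0.59) and RAB5B (-0.39) passed the limit in RT4. The counts of 12 and 2 members changed in 1 or 2 lines only have no share over all loci beside them. All these counts and shares are descriptions of single libraries.

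**Figure D3:**
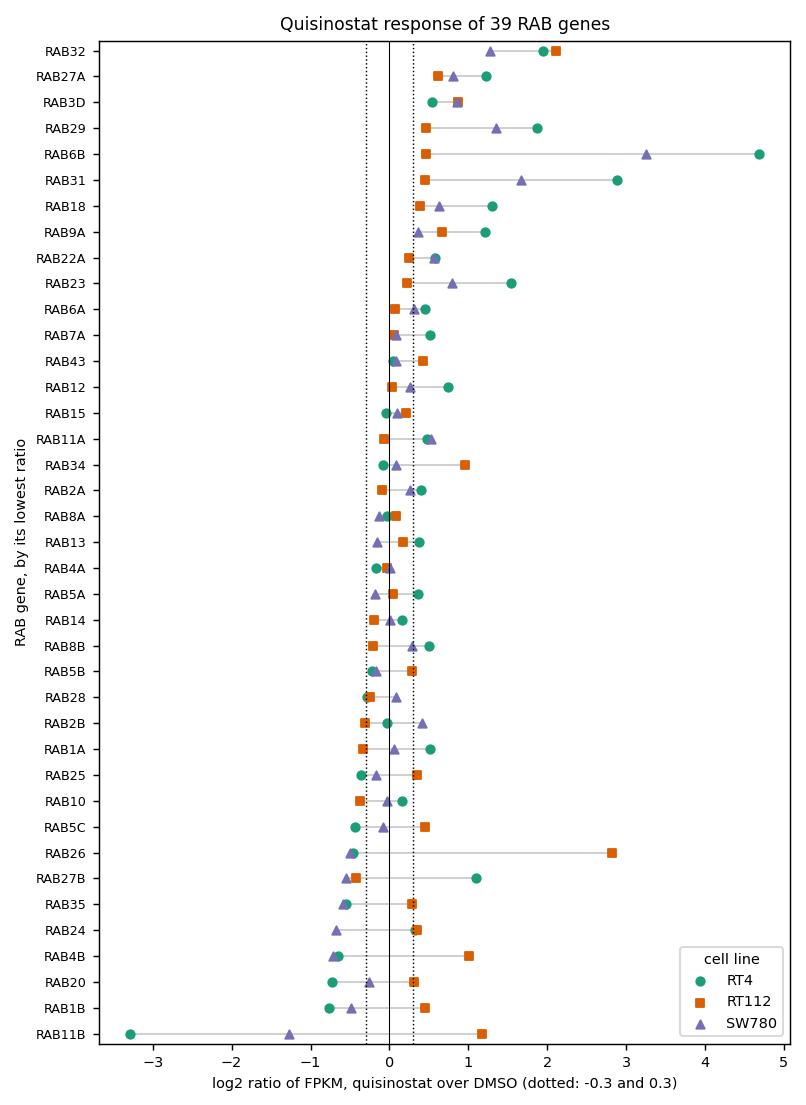
Log2 ratio of FPKM, quisinostat over DMSO, for the 39 RAB genes above 0 in all libraries, 1 symbol per cell line and dotted lines at -0.3 and 0.3. Genes are ordered by their lowest ratio, from RAB32 (1.27) at the top to RAB11B (-3.28) at the bottom, and the 8 uppermost genes lie right of 0.3 in each line.

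With the lines as replicates and the line as a block, limma on log2(FPKM + 1) gave an adjusted p below 0.05 for 0 of the 40 RAB genes, as for 0% of the 9430 loci. At an unadjusted p below 0.05, 8 members were higher with quisinostat (20%, against 9.68% of all loci) and 0 were lower (against 4.16%). They were the same 8 genes that were above 0.3 in every line, and their adjusted p-values in limma lay between 0.226 and 0.348, so none of them is called. Of the 8, RAB29 and RAB3D share their locus with another gene. Among the 34 members with a ratio and a locus of 1 gene name, 6 were higher in every line, a count without a background share. The 8 genes are described next by compartment.

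Lysosome-related traffic held 3 of the 8. RAB32 (chr6:146543693-146554965, plus strand), which sorts cargo to lysosome-related organelles and also anchors protein kinase A at mitochondria, had the largest of the lowest ratios among the members. It went from 11.4 to 43.9 FPKM in RT4 (3.84-fold), from 3.29 to 14.2 in RT112 (4.32-fold) and from 4.01 to 9.71 in SW780 (2.42-fold). Every line was higher with quisinostat, although the RT4 library with DMSO still exceeded the SW780 library with quisinostat. The fitted difference was 1.59 on the log2(FPKM + 1) scale (SE 0.24, 95% interval 0.99 to 2.19, 3 lines, limma, adjusted p = 0.226). By its lowest ratio RAB32 ranked 185 of the 9112 loci.

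RAB29, which recruits the kinase LRRK2 to Golgi and lysosomal membranes, had ratios of 1.87, 0.47 and 1.35 in the same order of lines, from 5.90 to 21.5, 4.90 to 6.78 and 7.60 to 19.4 FPKM. The RT112 library with quisinostat overlapped the DMSO libraries. RAB9A, which returns mannose 6-phosphate receptors from late endosomes to the Golgi, went from 4.52 to 10.5 FPKM in RT4, from 5.52 to 8.77 in RT112 and from 3.93 to 5.07 in SW780. Its SW780 ratio of 0.37 was just inside the limit of 0.3, while RAB22A (0.25 in RT112) and RAB23 (0.22 in RT112) were just outside it. RAB38, left out of the ratios because of its zeros, had a ratio of 1.13 in RT4, and its SW780 levels were near 0.

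In the Golgi and ER group, RAB6B and RAB18 were higher in each line. RAB6B is the neuron-enriched relative of RAB6A, which drives retrograde Golgi transport, and it showed the largest ratio of any member: 0.191 to 4.92 FPKM in RT4 (25.7-fold) and 0.268 to 2.56 in SW780 (9.55-fold), but 1.91 to 2.64 in RT112 (1.38-fold). Each quisinostat library lay above each DMSO library, and the 2 largest ratios started from the 2 lowest DMSO values. RAB39B also started from levels near 0, with 0.121 to 2.49 FPKM in RT4, 0 to 0.130 in RT112 and 0.0955 to 2.32 in SW780. RAB18, a RAB of the ER and lipid droplets, had ratios of 1.30, 0.39 and 0.63 in RT4, RT112 and SW780.

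In the secretory group, RAB27A and RAB3D were higher in each line. RAB27A (chr15:55202966-55319113, minus strand) docks secretory lysosomes and exosome-bearing endosomes at the plasma membrane. It went from 2.72 to 6.39 FPKM in RT4, from 3.0 to 4.61 in RT112 and from 3.79 to 6.63 in SW780, and the quisinostat libraries did not overlap with the DMSO libraries. RAB3D, a RAB of regulated secretory granules, had ratios of 0.54, 0.87 and 0.86. Its RT4 library with DMSO (10.8 FPKM) lay above the quisinostat libraries of RT112 (9.32) and SW780 (6.19). Among early endosome genes RAB31 stood alone, with ratios of 2.89, 0.45 (RT112, 3.13 to 4.27 FPKM) and 1.67.

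By compartment, the sum over the 8 RAB genes of late endosomes, lysosomes and lysosome-related organelles went from 172 to 308 FPKM in RT4, from 189 to 211 in RT112 and from 147 to 174 in SW780. This group had the largest ratio of sums in RT4 (0.84 on the log2 scale) and in SW780 (0.25) of the 5 compartment groups. In RT112 its ratio (0.16) was below those of the early endosome (0.31) and recycling endosome genes (0.19). Such sums weigh high genes most, among them RAB7A, and include RAB38, which was near 0 outside RT4. They were not GC corrected. The 7 recycling endosome genes had no member higher in all 3 lines, and in RT4 4 of them (RAB11B, RAB25, RAB35 and RAB4B) were below -0.3, where 33.5% of all loci were. With GC correction 2 were, RAB11B and RAB4A. RAB5A, RAB5B and RAB5C, which control fusion of incoming vesicles, had ratios of 0.36, -0.22 and -0.43 in RT4, 0.05, 0.29 and 0.46 in RT112, and -0.18, -0.16 and -0.09 in SW780. RAB7A had ratios of 0.51, 0.06 and 0.09, and RAB8A, a RAB of polarised exocytosis, -0.02, 0.09 and -0.13.

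Among the 11 members with opposite directions, 7 were above 0.3 in RT112, below -0.3 in RT4 and below 0 in SW780. RAB11B (chr19:8389981-8404434, plus strand), a recycling endosome RAB, had the widest range: it went from 14.0 to 1.44 FPKM in RT4 (ratio -3.28) and from 3.17 to 1.30 in SW780 (-1.28), but from 5.80 to 13.1 in RT112 (1.17). RAB26 had the next widest range, with 0.248 to 1.76 FPKM in RT112 and 0.340 to 0.246 and 0.316 to 0.223 FPKM in RT4 and SW780. RAB4B (recycling), RAB1B, RAB20 (phagosome maturation), RAB5C and RAB25 shared these signs, with RT112 ratios between 0.32 and 1.01. RAB25, an epithelial relative of RAB11A, went from 70.9 to 55.1 FPKM in RT4, from 52.1 to 66.4 in RT112 and from 46.7 to 41.6 in SW780. RAB27B, RAB1A, RAB2B and RAB24 differed between lines in other ways.

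These line differences moved with base composition. Transcript GC content (longest protein-coding transcript in GENCODE 29) ran from 35.9% to 64.4% over the members, with a median of 45.9% against 48.4% over all loci. Across the 39 members, Spearman's rho of GC content with the response came to -0.58 (RT4), 0.63 (RT112) and -0.45 (SW780). It was -0.49, 0.44 and -0.22 over the 8407 loci with a GC value, so the members followed a trend of the whole libraries. Genes of 1 library are not independent, and no p-value is given.

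Of the 23 members below 50% GC, 17 were higher and 0 lower in RT4, 5 higher and 4 lower in RT112, and 10 higher and 1 lower in SW780. The 16 members at 50% GC or above showed the opposite order. RT4 had 4 higher and 8 lower, RT112 had 13 higher and 0 lower, and SW780 had 3 higher and 6 lower. These counts were made for the members only and have no background share. Whether RAB genes differ here from other loci of like GC content was not tested. The summed level of the bladder epithelium markers also differed in direction between lines, from 1779 to 995 FPKM in RT4, 1143 to 1712 in RT112 and 1687 to 1012 in SW780. Its part in the RAB values was not tested. Some markers went against the sum. In RT4, UPK1B (37.5 to 74.3 FPKM), KRT20 (3.21 to 62.7), EPCAM (62.4 to 94.6) and CDH1 (114 to 142) were higher with quisinostat. PPARG (86.5 to 51.5), KRT20 (1.11 to 0.336) and EPCAM (58.3 to 44.7) were lower in RT112. KRT20 (0.356 to 2.80), EPCAM (53.3 to 66.6) and CDH1 (58.0 to 72.2) were higher in SW780.

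**Figure D4:**
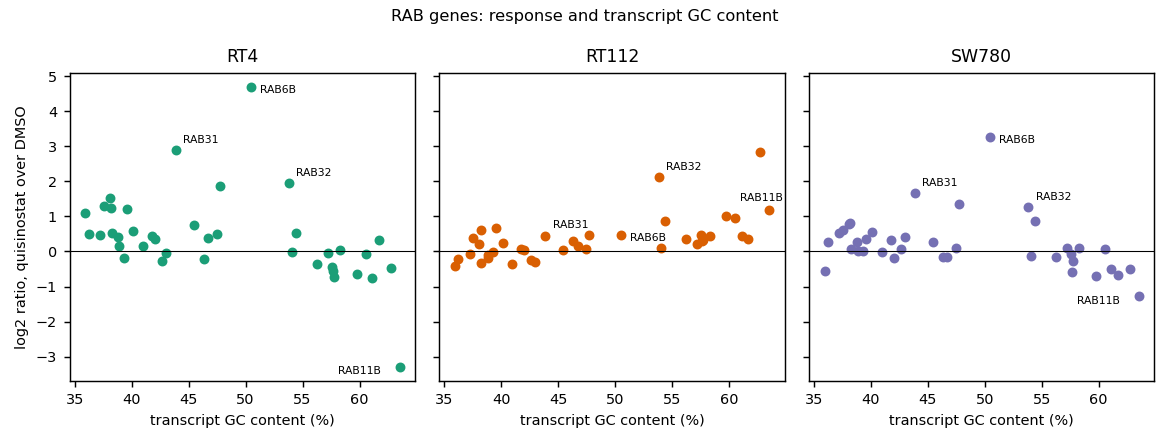
Log2 ratio (quisinostat over DMSO) against transcript GC content (%) for the 39 RAB genes, 1 panel per cell line with a shared vertical axis. The points slope down in RT4 (Spearman's rho -0.58) and SW780 (-0.45) and up in RT112 (0.63), while RAB32 lies above 1 in each panel.

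Each line's trend was then taken out by subtracting a lowess curve of ratio on GC content over all loci. The members' rho became 0.15, 0.003 and -0.25 in RT4, RT112 and SW780, and their median ratio 0.21, 0.19 and 0.08. After this correction 9 members were above 0.3 in every line (against 13.1% of loci) and 0 were below -0.3 in every line (against 5.96%). RAB9A left the list (0.25 in SW780), and RAB23 (1.08, 0.44 and 0.65), a negative regulator of Hedgehog signalling, entered it. RAB34 entered it too (0.82, 0.40 and 0.36), but its RT112 ratio rests on levels near 0 (0.036 and 0.069 FPKM). With a pseudocount of 1 and no GC correction that ratio was 0.046, and the uncorrected RAB34 ratios in RT4 and SW780 were -0.08 and 0.08. RAB32 kept ratios of 2.22, 2.01 and 1.33, and RAB27A of 0.78, 0.84 and 0.67. Members with opposite directions numbered 6 in place of 11 (15.4%, against 18.0% of loci). RAB11B remained among them at -2.05, 0.39 and -0.89, whereas RAB1B came to 0.21, -0.15 and -0.19.

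Paralogues with overlapping roles show the same contrast within a pair. RAB1A and RAB1B both act between ER and Golgi, and their transcripts hold 38.3% and 61.1% GC. RAB1A was at 42.1 FPKM with DMSO and 60.2 with quisinostat in RT4, at 56.4 and 44.8 in RT112, and at 61.1 and 63.7 in SW780. RAB1B was at 104 and 61.6 FPKM, 81.1 and 111, and 79.2 and 56.6 in the same order. The pair therefore came close to equal in RT4 with quisinostat, and moved apart in RT112. The log2 ratio of RAB1A over RAB1B changed by 1.28 in RT4, -0.78 in RT112 and 0.55 in SW780, and by -0.14, 0.03 and 0.12 after GC correction.

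RAB11A and RAB11B, at 37.2% and 63.5% GC, differed more. RAB11A went from 43.1 to 60.3 FPKM in RT4, from 32.8 to 31.2 in RT112 and from 31.5 to 45.3 in SW780, so that RAB11A over RAB11B went from 3.07 to 41.8 in RT4, from 5.66 to 2.39 in RT112 and from 9.96 to 34.7 in SW780. The change in this log2 ratio was 3.77, -1.25 and 1.80, and 2.04, -0.24 and 1.26 after GC correction. A difference in RT4 and SW780 was thus left after the trend was taken out.

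RAB27A and RAB27B are both poor in GC (38.2% and 35.9%), and the ratio between them moved little with the correction. RAB27B (chr18:54717860-54895516, plus strand) went from 4.41 to 9.49 FPKM in RT4, from 3.41 to 2.54 in RT112 and from 4.08 to 2.79 in SW780. In RT4 both genes were higher with quisinostat, while in RT112 and SW780 RAB27A was higher and RAB27B lower. RAB27A over RAB27B went from 0.879 to 1.81 in RT112 and from 0.928 to 2.38 in SW780, but from 0.617 to 0.673 in RT4. The change in the log2 ratio was 0.13, 1.04 and 1.36 in RT4, RT112 and SW780, and 0.22, 1.04 and 1.40 after GC correction. RAB27B itself came to 0.56, -0.20 and -0.73 with the correction, so that in RT112 it was no longer below -0.3. No pair was tested, since each value comes from a single library.

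**Figure D5:**
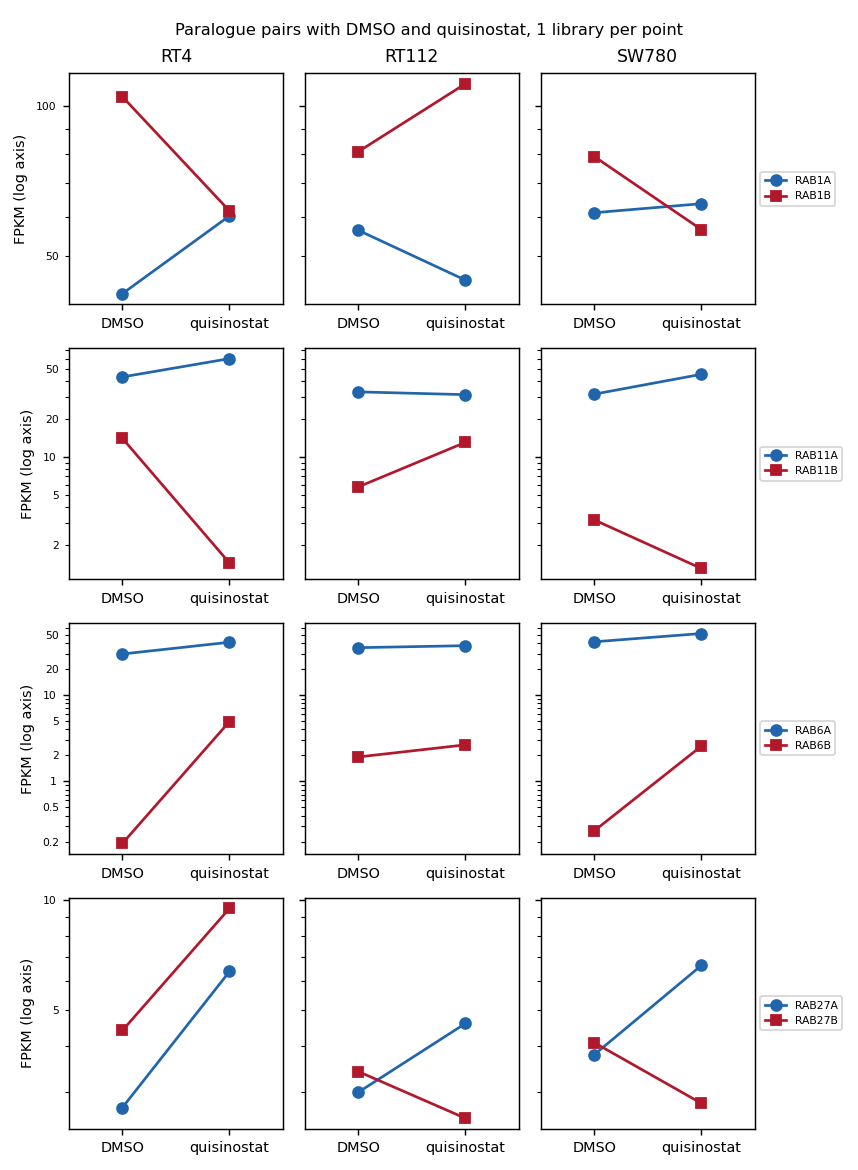
FPKM on a log axis of 4 RAB paralogue pairs with DMSO and quisinostat in each cell line, 1 library per point and no error bars. RAB11A and RAB11B move apart in RT4 (ratio 3.07 to 41.8) and SW780, RAB6B climbs towards RAB6A in RT4, and RAB27A and RAB27B cross in RT112 and SW780.

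Promoter sequences are shown for RAB32 and RAB31, which were higher in every line, and for the pair RAB27A and RAB27B, which parted in RT112 and SW780. RefSeq promoter windows (GRCh38.p14, 250 bases upstream of the RefSeq start) matched 34 of the 42 members. The lines below give each window up to the start of the gene in GENCODE 29, 5′ to 3′ on the gene's strand, in lower case with GC boxes (GGGCGG or its reverse complement CCGCCC) in capitals. They lie at chr6:146543583-146543692 (plus), chr18:9708051-9708164 (plus), chr15:55319124-55319373 (minus) and chr18:54717607-54717856 (plus).
RAB32: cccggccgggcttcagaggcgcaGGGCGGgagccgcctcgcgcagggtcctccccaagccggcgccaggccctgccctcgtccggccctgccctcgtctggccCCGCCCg
RAB31: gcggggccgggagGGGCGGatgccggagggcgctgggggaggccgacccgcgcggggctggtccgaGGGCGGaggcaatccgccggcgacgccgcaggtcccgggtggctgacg
RAB27A: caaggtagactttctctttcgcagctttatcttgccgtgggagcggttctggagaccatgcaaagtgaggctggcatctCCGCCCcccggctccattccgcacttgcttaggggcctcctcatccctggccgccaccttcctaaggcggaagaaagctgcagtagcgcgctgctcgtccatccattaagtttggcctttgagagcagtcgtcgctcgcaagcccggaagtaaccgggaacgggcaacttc
RAB27B: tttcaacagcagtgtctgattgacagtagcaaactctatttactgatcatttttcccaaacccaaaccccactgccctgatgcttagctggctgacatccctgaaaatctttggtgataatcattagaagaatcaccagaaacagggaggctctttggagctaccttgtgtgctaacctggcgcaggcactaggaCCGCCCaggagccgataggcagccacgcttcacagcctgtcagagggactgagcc

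In the full windows, RAB31 held 40 CpG dinucleotides, RAB32 36, RAB27A 17 and RAB27B 4. RAB27B thus had the fewest CpG of the 34 members matched, whose median was 23.5 (11 over all 27305 promoters of the table). A GC box on either strand was present in 30 of the 34 members (88.2%, against 42.3% of all promoters) and in 7 of the 8 genes that were higher in all 3 lines. The E box CACGTG, which reads the same on both strands, was in 4 members (11.8%, against 6.49%), among them RAB31. The CCAAT box (CCAAT or ATTGG) was in 9 members (26.5%, against 33.0%) and in 0 of the 8. The TATA box (TATAAA or TTTATA) was in 0 members (against 11.1%). The GC box and CpG counts overlap, since GGGCGG contains a CpG. These are matches of letters in 1 window per gene.

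The last comparison covered the genes that run the RAB cycle. A list of 163 such genes had 112 in the table and 107 loci with a ratio. Of these, 14 loci (13.1%, against 11.4% of all loci) were above 0.3 in every line, a share near the background, and 1 was below -0.3 in every line (against 4.99%). With GC correction the counts were 14 (against 13.1% of all loci) and 2, not all of them the same genes. GDI2, a GDP dissociation inhibitor, was at 98.9 and 95.7 FPKM in RT4 (DMSO and quisinostat), 140 and 104 in RT112, and 108 and 92.5 in SW780, with ratios of -0.05, -0.42 and -0.22.

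Both escort proteins, which present new RABs for prenylation, were higher in every line: CHM had ratios of 0.68, 0.37 and 0.54, and CHML, which shares its locus with OPN3, 0.95, 0.73 and 0.97. With GC correction CHM was at 0.17 in RT4 and CHML stayed above 0.3 in each line. The subunits of the geranylgeranyl transferase that adds the lipid anchor had mixed signs. RABGGTA had ratios of -1.83, 0.32 and -0.93, and RABGGTB, which shares its locus with ACADM, 1.15, -0.57 and 0.19. With GC correction RABGGTA was at -0.87, -0.27 and -0.64, below 0 in each line, while RABGGTB was at 0.74, -0.36 and 0.07.

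Among effectors, 6 of 44 loci (13.6%, near the 11.4% of all loci) were higher in every line. KIF16B, a kinesin that moves early endosomes, had ratios of 1.31, 1.26 and 1.64, from 2.07 to 5.16, 1.01 to 2.42 and 1.60 to 4.96 FPKM. OPTN, an autophagy receptor that binds RAB8, had ratios of 1.62, 1.38 and 0.70. The RAB11 adaptors RAB11FIP1 (1.11, 0.51 and 0.67) and RAB11FIP5 (0.83, 0.77 and 0.42) were higher too, the latter not in RT112 with GC correction (0.17). Among the 32 exchange factor loci 3 were higher (9.38%, against 11.4%) and 1 lower in every line. WDR41, which forms a complex with C9orf72 and SMCR8, had ratios of 2.11, 1.02 and 1.07. DENND2D, a DENN domain exchange factor, was the only listed gene lower in every line, from 24.5 to 13.3 FPKM in RT4, 9.09 to 2.39 in RT112 and 32.0 to 10.1 in SW780. Of 24 loci of GTPase-activating proteins 3 were higher in every line (12.5%, again near 11.4%), among them TBC1D7 (0.71, 0.47 and 0.62), a TBC domain protein of the TSC complex.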

How the data were processed

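RNA from 6 cultures was sequenced by the authors as stranded polyadenylated libraries on an Illumina NovaSeq. The submitters' processing notes name CASAVA 1.8.2, Trimmomatic 0.36, HISAT2 2.2.1, SAMtools 1.15.1 and StringTie 2.2.1, with GRCh38. The deposited values are FPKM per assembled locus from Ballgown, which are scaled by the authors for length and mapped fragments. All 6 value columns were used, and depth per library is unknown. FPKM holds no stated correction for GC content.

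From the table, 1 value per locus was taken. Log2 ratios were computed per line without a pseudocount, with the limit of 0.3 used in the study. limma 3.58.1 (R 4.3.3) was run on log2(FPKM + 1) for every locus whose mean FPKM reached 1, using a mean-variance trend, cell line and treatment in the model and Benjamini-Hochberg adjustment over all loci. A difference on this scale understates changes of low genes. The libraries are paired because both come from the same cell line. GC correction was a lowess fit (span 0.3, statsmodels 0.14.6). The limma step was tested on simulated data.

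The members, gene lists and tests were chosen with earlier results of these data known. Genes named were those beyond 0.3 the same way in all 3 lines, those past the line test, those with the smallest p for treatment, 12 preset RAB genes, up to 6 of the widest range between lines, and 8 RAB cycle genes with the largest weakest ratio plus GDI2, CHM, CHML, RABGGTA and RABGGTB. 1 further gene of this rule is not reported here. The other members were named to account for every gene, after their values were seen. Alternatives were pseudocounts, filters, centring, rescaling, GC correction, thresholds of 0.5 and 1, a left-out cell line, and for limma also quantile normalization, no trend, no filter and no block.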

Additional observations from a re-analysis of the deposited data

Results flagged for a closer look

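11 RAB genes stood above 0.3 on the log2 scale in 1 line and below -0.3 in another. The difference between lines was not tested, because each line has 1 library per treatment. The distance between the highest and the lowest of the 3 ratios was 4.46 for RAB11B, 3.33 for RAB26, 1.72 for RAB4B, 1.65 for RAB27B, 1.21 for RAB1B, 1.05 for RAB20, 1.02 for RAB24, 0.89 for RAB5C, 0.85 for RAB1A, 0.72 for RAB2B and 0.71 for RAB25. RAB2B went from 5.44 to 4.39 FPKM in RT112 and from 6.14 to 8.18 in SW780. RAB24 was higher in RT4 (3.54 to 4.45 FPKM) and RT112 (2.82 to 3.60) and lower in SW780 (4.39 to 2.75).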

How the results depend on the processing

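Of the counts of members, 98 alternatives stayed within 1.5 times the reported count and 24 did not. With GC correction the members lower in RT4 numbered 5 (against 29.8% of loci) and in RT112 0 (against 20.9%). Those differing between lines numbered 10 (25%, against 21.7% of all loci). With this correction 30 of 117 single ratios changed sign, 12 of them from beyond 0.3: in RT4 to -0.0084 for RAB11A, 0.21 for RAB1B, 0.10 for RAB25, 0.69 for RAB26, -0.029 for RAB2A, 0.0436 for RAB35, 0.17 for RAB4B, 0.16 for RAB5C and -0.0252 for RAB8B, and in RT112 to -0.15 for RAB1B, -0.0207 for RAB20 and -0.29 for RAB24. No ratio changed sign with a pseudocount of 0.1 or 1. With centring on the median 5 did and with rescaling to the same sum 4 did, all of them within 0.05 of 0. At a threshold of 0.5, 5 members were lower in RT4, 8 higher and 0 lower in RT112, and 3 higher in all lines. At a threshold of 1, 9 were higher and 1 lower in RT4, 4 higher and 0 lower in RT112, 4 higher and 1 lower in SW780, and 1 (RAB32) higher in all lines. Leaving out a cell line gave 0 to 5 members lower in the remaining lines, the 5 without RT112. In limma the count at an unadjusted p below 0.05 was 5 higher when only loci whose mean FPKM reached 5 were kept, 4 with quantile normalization, 3 without the cell line as replicate block, and 1 to 6 higher and 0 to 3 lower with a line left out (1 higher without RT4 and 1 without SW780, 3 lower without RT112). The counts at thresholds of 0.5 and 1, of lower members with a line left out and at an unadjusted p have no background share here. No excess over all loci can be read from them. The line effect held for 0 to 6 members with a line left out (0% to 15%, against 0% to 7.89% of all loci). No member passed the adjusted treatment test under any of these settings, and removing the cell line block changed no adjusted treatment call, while without the treatment term the line effect held for 3 members, RAB32 losing its call. Fewer libraries enter a fit with a line left out; the cause of the other shifts was not tested. Depth is unknown, and with 1 library per line and treatment no ratio has an error of its own.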
